A study of Mus musculus with 8 samples.

Results

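The glycolysis enzyme genes are Hk2, Gpi1, Aldoa, Tpi1, Gapdh, Pgk1, Pgam1, Eno1, Pkm and Ldha, which were looked up by symbol in a table of cluster markers from mouse white preadipocytes. All 10 had at least 1 entry, and together they held 35 of the 13337 entries and 10 of the 3903 gene symbols in the table. The cells were cultured preadipocytes from the inguinal white adipose tissue of C57BL/6 mice, either wild type (WT) or double knockout (DKO, Hmgn1-/- and Hmgn2-/-). HMGN1 and HMGN2 are proteins that bind nucleosomes, the units of DNA wrapped on histones. WT cells and DKO cells were each sampled as preadipocytes at day 0 and as differentiating cells at day 6, with 2 cultures for each genotype and day and 8 samples in all. Day 6 cells had been driven towards brown-like adipocytes with insulin, dexamethasone, IBMX, the thyroid hormone T3 and rosiglitazone, followed by insulin and T3, while day 0 cells had not. The knockout was carried by the mice that gave the cells, so DKO cultures had lacked both proteins before they were plated. How many mice went into each culture is not given in the sources used here.

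The table pools the cells of all 8 samples into 12 clusters numbered 0 to 11. For each listed gene it gives the percentage of a cluster's cells with at least 1 transcript of the gene, called detection here, and the same percentage in all other cells. It does not split its values by sample, genotype or day. Every value below is therefore a single pooled value without a replicate error, and neither DKO and WT nor day 0 and day 6 could be compared. Depth and cell numbers are unknown from it, and counting intervals are left out. A gene was listed for a cluster only where it passed the authors' minimums on detection and fold change. A missing entry is thus not a detection of 0, and cells with few transcripts lower the detection of any gene without saying how much of it a cell makes.

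Glycolysis is the cytosolic pathway that splits glucose into pyruvate and yields ATP and NADH. Lactate dehydrogenase can then turn pyruvate into lactate and return NAD+. In fat cells glycolysis also supplies glycerol 3-phosphate for triglycerides and pyruvate for fatty acid synthesis. The genes of this pathway are used by nearly every cell, and many are known targets of hypoxia-inducible factors, which bind the short core ACGTG, in which G may stand in place of the first A (GCGTG).

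Each enzyme acts at its own step, and the genes lie on 6 chromosomes as annotated by GENCODE on mm10. Hk2 (chr6:82725025-82774454) encodes hexokinase 2, which phosphorylates glucose, and Gpi1 (chr7:34201330-34230336) encodes the isomerase that makes fructose 6-phosphate. Aldoa, an aldolase that splits fructose bisphosphate, is a symbol of 2 neighbouring records (chr7:126795234-126800751 and chr7:126800790-126809108), and the table does not say which was counted. Tpi1 (chr6:124810586-124814296) interconverts the triose phosphates. The enzyme of Gapdh (chr6:125161715-125166467) makes NADH, that of Pgk1 (chrX:106187100-106203699) makes ATP, and that of Pgam1 (chr19:41911923-41918660) moves the phosphate group. Eno1 (chr4:150236721-150248879), an enolase, precedes Pkm (chr9:59656368-59679375), the pyruvate kinase that makes the last ATP, and Ldha (chr7:46841475-46855627) makes lactate. All of these records are protein-coding. Eno1 has a closely similar retrogene copy and Gapdh has many pseudogenes, so their detection is uncertain where reads could be shared.

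Promoter sequence is shown for 4 of the genes, chosen by their place in the results. Hk2 had the largest difference for cluster 11, Eno1 had the largest for clusters 4 and 10 and no entry for cluster 11, Pgk1 shared the most entries with Pkm, and Ldha held the palindrome CACGTG. Each sequence is the 250 bases before a RefSeq transcript start (GRCm38.p6), on the strand of the gene, with either core, read on either strand, in capitals. They cover chr6:82774455-82774704 (minus strand) for Hk2, chr7:46845554-46845803 (plus) for Ldha, chr4:150236458-150236707 (plus) for Eno1 and chrX:106186850-106187099 (plus) for Pgk1.
Hk2: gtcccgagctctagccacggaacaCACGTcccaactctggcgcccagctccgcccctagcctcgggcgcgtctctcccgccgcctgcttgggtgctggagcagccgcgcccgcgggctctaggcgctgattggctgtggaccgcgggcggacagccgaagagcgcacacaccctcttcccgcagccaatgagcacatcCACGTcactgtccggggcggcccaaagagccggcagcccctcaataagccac
Ldha: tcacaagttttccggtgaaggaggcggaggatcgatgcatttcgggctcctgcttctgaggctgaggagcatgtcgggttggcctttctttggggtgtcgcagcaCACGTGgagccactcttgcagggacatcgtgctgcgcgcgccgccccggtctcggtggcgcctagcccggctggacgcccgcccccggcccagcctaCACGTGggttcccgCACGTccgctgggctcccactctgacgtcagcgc
Eno1: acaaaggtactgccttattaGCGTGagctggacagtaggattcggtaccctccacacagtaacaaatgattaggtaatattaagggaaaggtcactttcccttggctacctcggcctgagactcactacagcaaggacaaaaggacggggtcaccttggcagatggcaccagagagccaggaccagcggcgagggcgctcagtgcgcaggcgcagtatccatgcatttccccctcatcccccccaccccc
Pgk1: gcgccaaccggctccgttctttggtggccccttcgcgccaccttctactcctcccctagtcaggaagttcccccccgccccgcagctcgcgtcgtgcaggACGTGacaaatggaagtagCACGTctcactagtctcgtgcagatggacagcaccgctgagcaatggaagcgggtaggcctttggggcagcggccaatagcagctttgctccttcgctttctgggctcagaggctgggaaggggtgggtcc

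In windows from 250 bases before to 50 after a start, searched on both strands, 8 of the 10 genes held at least 1 of these cores, against 46.7% of the 27025 genes with a window. The 2 without either were Gpi1 and Tpi1. The core ACGTG was found for 7 of the 10 genes, against 21.8% of all genes. The form with the leading G, GCGTG, was found for 4, against 35.2%. The 10 genes had 16 windows, some overlapping, of which 12 held either core, against 43.8% of all 32851 windows. CACGTG, which contains ACGTG on both strands, was found for Ldha alone, against 8.09% of genes. These matches describe letters in a window and do not show that a factor binds there.

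Over all cells, 9 of the 10 genes were detected in at least 85.2% and Hk2 stood well under them. These levels were computed from the authors' percentages and the share of cells in each cluster, which was solved from the table. Aldoa was detected in 97.1% of all cells, Gapdh in 96.7% and Pkm in 95.1%. Ldha (93.5%), Pgk1 (92.2%) and Pgam1 (91.9%) followed, then Tpi1 (88.9%), Eno1 (88.3%) and Gpi1 (85.2%). Hk2, the entry step for glucose, was detected in 56.2%. The values of 1 gene computed from its different clusters spread by at most 0.087 percentage points. Neighbours in this order have no replicate error to set them apart, and detection is not a level per transcript length.

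The widest differences in detection of these genes were in clusters 4 and 10, and for Hk2 in cluster 11. Of the 35 entries, 25 showed higher detection in the cluster than elsewhere, beside 54% of all entries in the table, and 10 showed lower detection, beside 45.9%. All 10 of the latter were in clusters 4 and 10, and the 25 entries of the other 10 clusters were all on the higher side, by 0.9 to 30.7 percentage points. A difference of at least 10 percentage points was counted as large. Large higher differences made up 4 of the 35 entries, against 40% of all entries in the table, and large lower ones made up 9, against 37.4%. High detection leaves little room to go higher. Among the 1157 entries of the whole table detected in at least 90% of the other cells, 0.0864% were higher by 10 percentage points, and 27 of the 35 entries here were of this kind.

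**Figure D1:**
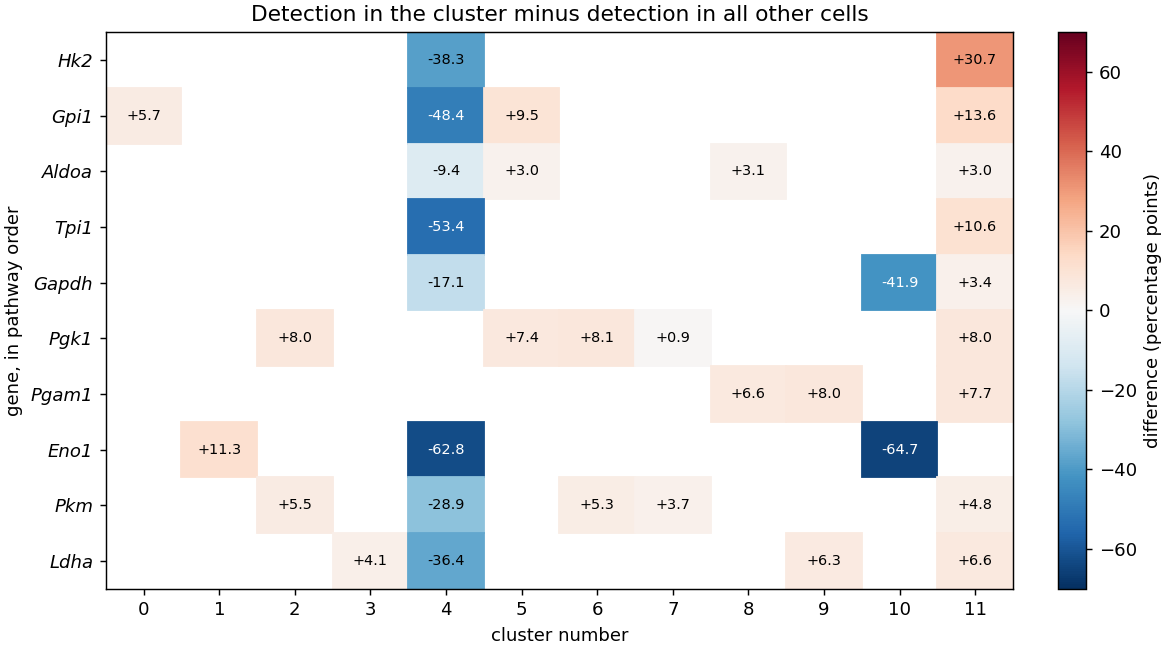
Each coloured cell is 1 entry of a glycolysis gene (rows, in pathway order) for a cluster (columns), with detection in the cluster minus detection in all other cells printed in percentage points; white cells have no entry. The 10 blue entries, from -9.4 to -64.7, all lie in clusters 4 and 10, and cluster 11 has 9 entries, all above 0.

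Cluster 11, the smallest with 1.5% of the cells, listed 9 of the 10 glycolysis genes, all with higher detection than in the other cells. The table listed 63.7% of its symbols for this cluster, and 59.5% of the 2487 entries there were on the higher side. Detection of Hk2 was 86.5% in cluster 11 and 55.8% in the other cells, a ratio of 1.55. Gpi1 stood at 98.6% against 85%, and Tpi1 at 99.3% against 88.7%. These 3 differences, of 30.7, 13.6 and 10.6 percentage points, were the large ones, 3 of 9 entries against 44.4% of all entries for the cluster.

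The remaining 6 listed genes were close to full detection in cluster 11. Aldoa, Gapdh, Pgk1 and Ldha were detected in 100% of its cells, Pkm in 99.8% and Pgam1 in 99.5%. In the other cells these 6 genes ranged from 91.8% for Pgam1 to 97.0% for Aldoa. Eno1 was the only member without an entry for cluster 11. The median difference over the 9 genes was 7.7 percentage points, and over all entries of cluster 11 it was 6.6. Over the 132 entries of cluster 11 detected in at least 90% of the other cells, the median was 3.35, and 89.4% were on the higher side. Adipocyte markers stood high in the same cluster. Of 10 such genes, 9 were detected in at least 10 percentage points more of its cells, with detection from 68.2% to 100% over the list, as were 3 of 5 thermogenic genes, beside 44.4% of all entries there. All 6 listed preadipocyte markers, of 8 looked up, had an entry for the cluster, and 5 were lower by that margin, beside 28.7% of all entries. Their part in the glycolysis values was not tested.

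Cluster 4, with 9.59% of the cells, listed 8 of the 10 genes, each with lower detection than in the other cells, as for 97.9% of all entries there. Aldoa had the smallest gap, with 88.6% in the cluster and 98.0% in all other cells, followed by Gapdh, with 81.2% and 98.3%. Pkm was detected in 68.9% against 97.8%, and Ldha in 60.6% against 97.0%.

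Lower still in cluster 4 were Gpi1, with 41.4% against 89.8%, and Tpi1, with 40.6% against 94.0%. Eno1 was detected in 31.5% against 94.3%, the widest gap of the 8, at -62.8 percentage points and a ratio of 0.33. Hk2 was detected in 21.6% against 59.9%. Among the 8 genes, Eno1, Tpi1, Ldha, Pkm, Aldoa and Gapdh were all detected in at least 94.0% of the other cells, yet in cluster 4 they ran from 31.5% to 88.6%. The difference was large for 7 of the 8 entries, which is read against 92.8% of all 2072 entries of the cluster. The median over the 8 genes was -37.35 percentage points, and over all entries of cluster 4 it was -47.2. The lower detection was thus shared with most genes listed there.

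Marker genes were listed for cluster 4 as well. All 6 listed preadipocyte markers, of 8 looked up, were detected in at least 10 percentage points fewer of its cells, at 7.9% to 20.9%, near the 92.8% of all entries of the cluster. Of 10 adipocyte markers, 6 were higher by that margin, against 0.82% of all entries, with detection from 11.7% to 98.5% over the list. Their part in the result was not tested.

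**Figure D2:**
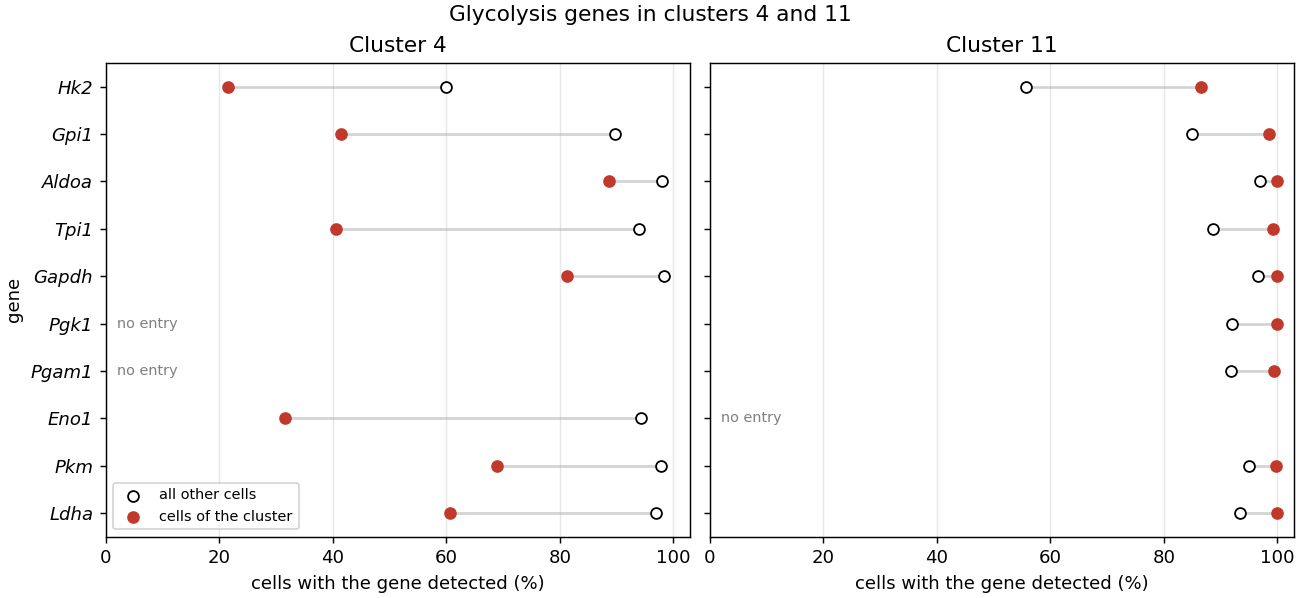
Percentage of cells with each gene detected, in the cluster (filled red points) and in all other cells (open points), for cluster 4 (left) and cluster 11 (right). Points in cluster 4 run from 21.6% for Hk2 to 88.6% for Aldoa and lie left of their open points, while those of cluster 11 run from 86.5% to 100% and lie right of them.

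Cluster 10, with 3.22% of the cells, listed only Eno1 and Gapdh. Eno1 was detected in 25.6% of its cells against 90.3% elsewhere, and Gapdh in 56.1% against 98.0%. Both differences were large, as were 98.5% of the 718 entries of the cluster. Reads of Eno1 and Gapdh could be shared with copies, which was not tested here, and the other members were not checked for copies. Beside cluster 4, Eno1 stood at 25.6% against 31.5% and Gapdh at 56.1% against 81.2%.

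The 9 clusters other than 4, 10 and 11 held 16 entries of 7 genes, and only 1 difference was large. Eno1 had a detection of 98.0% in cluster 1 and 86.7% elsewhere, a difference of 11.3 percentage points, beside 58.8% of entries that were higher by the same margin there. Cluster 5 listed Gpi1 (93.8% against 84.3%), Aldoa (99.8% against 96.8%) and Pgk1 (98.9% against 91.5%). None of these 3 reached 10 percentage points, which 72.1% of the entries of cluster 5 did, and their median was 7.4 against 25.9 over all entries. Aldoa and Pgk1 had no room to reach it. Over the 53 entries of cluster 5 detected in at least 90% of the other cells, the median was 5.5.

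Pgk1 and Pkm had the most entries, 5 each, and shared clusters 2, 6, 7 and 11. In cluster 2 Pgk1 was detected in 99.2% of cells against 91.2%, and Pkm in 99.9% against 94.4%. In cluster 6 the values were 99.7% against 91.6% for Pgk1 and 100% against 94.7% for Pkm. In cluster 7 both were closer to the other cells, at 93.0% against 92.1% for Pgk1 and 98.5% against 94.8% for Pkm. Large higher differences were found for 24.6%, 51.9% and 59.8% of all entries of clusters 2, 6 and 7.

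Cluster 9 listed Pgam1 (99.4% against 91.4%) and Ldha (99.5% against 93.2%). Cluster 8 listed Pgam1 at 98.1% against 91.5% and Aldoa at 100% against 96.9%. Gpi1 was the only member listed for cluster 0, at 90% against 84.3%, and Ldha the only one for cluster 3, at 97.2% against 93.1%. Each of these 6 differences was under 10 percentage points, a margin that only Gpi1, at 84.3% in the other cells, had room to reach. Of all entries, 76.9% were higher by that margin in cluster 9, against 26.2% of those for cluster 8. The shares were 66% for cluster 0 and 48.7% for cluster 3. Of 8 proliferation markers looked up, clusters 6, 5 and 9 listed 8, 7 and 6, all of them higher by at least 10 percentage points. That margin was reached by 51.9%, 72.1% and 76.9% of all entries of these clusters. The part of these markers in the glycolysis values was not tested.

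The clusters without an entry could be described together, because detection over all cells is the weighted mean of all clusters. For Hk2 the 10 clusters without an entry, holding 88.8% of the cells, had a pooled detection of 59.5%. For Tpi1 the same 10 clusters had 93.9%, and for Gapdh 9 clusters had 99.9%. Eno1 was at 96.6% in its 9 clusters without an entry, cluster 11 among them. Pgk1 (88.7%), Gpi1 (89.0%) and Pgam1 (90.8%) had lower pooled values than Tpi1, Gapdh and Eno1. For Pgk1 and Pgam1, clusters 4 and 10 were among those without an entry. For Gpi1 and Tpi1, among others, cluster 10 was without an entry but cluster 4 was not. The part of clusters 4 and 10 in these pooled values was not tested.

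Cluster 4 is part of the other cells of every other cluster, and for the 8 genes listed for it, it could be taken out of them. All 17 higher differences of these genes were then narrower, which follows by construction from their lower detection in cluster 4. The 8 differences of Pgk1 and Pgam1 could not be recomputed. With cluster 4 taken out of the other cells, Hk2 in cluster 11 stayed at 27.0 percentage points above them. Gpi1 in cluster 11 went from 13.6 to 8.9 and Tpi1 from 10.6 to 5.4, so that 1 of the 3 large differences was left. The median over the 7 genes listed for clusters 4 and 11 went from 6.6 to 3.1. Eno1 in cluster 1 went from 11.3 to 4.4, and with cluster 10 taken out too it was 1.4. The smaller differences narrowed as well, with Gpi1 in cluster 0 at 0.3 and Ldha in cluster 3 at 0.2. Among the glycolysis genes listed for cluster 4, the higher detection of Hk2 in cluster 11 was the only difference that stayed above 10 percentage points. Only Hk2 had ample room for this, at 59.5% in the other cells without cluster 4. There Gpi1 stood at 89.7% and Tpi1 at 93.9% beside cluster 11, and Eno1 at 93.6% beside cluster 1. A gene detected in over 90% of the other cells could not be higher by as much as 10 percentage points.

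**Figure D3:**
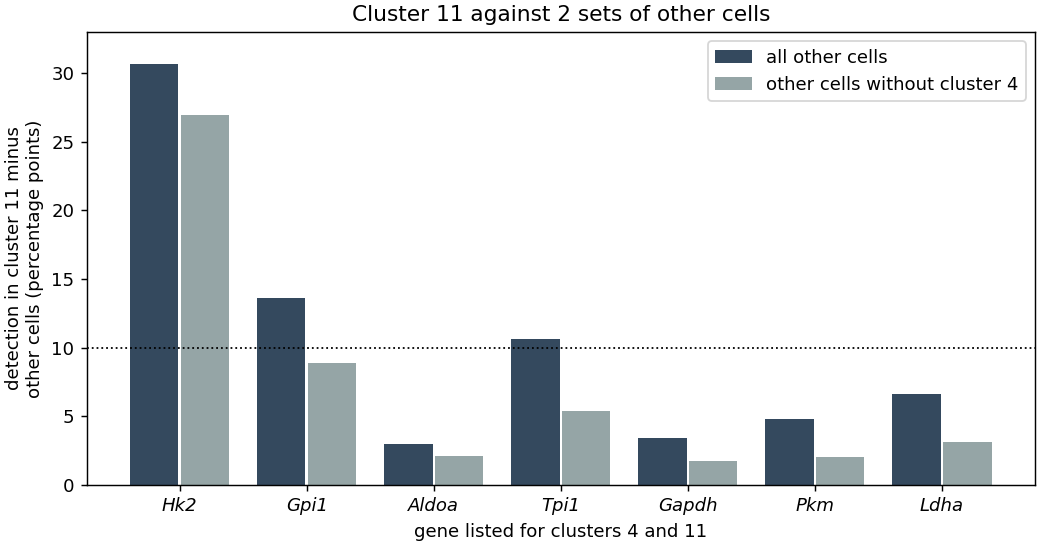
Bars give detection in cluster 11 minus detection in the other cells, in percentage points, for the 7 genes listed for clusters 4 and 11, with all other cells (dark) or with cluster 4 taken out of them (light); the dotted line is at 10. Hk2 stays above the line at 27.0, and Gpi1 and Tpi1 drop below it, to 8.9 and 5.4.

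Genes that feed or drain glycolysis were more varied in cluster 11 than the enzymes themselves. Of 22 other isoenzymes and glucose transporters, 5 had an entry in the table. In cluster 11, Pfkl, the liver-type phosphofructokinase, was detected in 96.8% of cells against 70.7%, and Ldhb, the other common lactate dehydrogenase subunit, in 83.6% against 30.9%. Hk1, a second hexokinase, was detected in fewer cells, at 13.8% against 35%, the reverse of Hk2. The glucose transporter gene Slc2a1 was at 41.0% against 51.0%. Pfkfb3, which makes the activator of phosphofructokinase and is from the separate list of regulators, was at 62.2% against 11.8%. Large lower differences made up 28.7% of all entries of cluster 11, and Hk1 and Slc2a1 were among them.

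Of 16 genes for the handling of pyruvate and lactate, 12 had an entry for cluster 11, with 11 higher by at least 10 percentage points and 1 lower, beside 44.4% and 28.7% of all entries there. Pcx, the carboxylase that makes oxaloacetate from pyruvate, reached 96.4% in cluster 11 against 17.4%. Pdha1, a subunit of pyruvate dehydrogenase, was at 96.6% against 64.8%. The lactate transporter genes parted, with Slc16a1 at 82.0% against 38.8% and Slc16a3, the low-affinity exporter, at 20% against 56.7%. The median over the 12 was 43.0 percentage points, beside 7.7 for the glycolysis enzymes, which had less room to go higher.

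Of the pentose phosphate genes, which draw glucose 6-phosphate away to make NADPH, 6 of 7 had an entry for cluster 11. All 6 were higher by at least 10 percentage points, beside 44.4% of all entries of the cluster, among them G6pdx, the entry enzyme, at 84.5% against 28.5%. Gpd1, which makes glycerol 3-phosphate, was detected in 80.2% against 10.8%, and was 1 of 3 listed among 10 genes of gluconeogenesis and glycerol. Of 7 glycogen genes, 3 had an entry for cluster 11, all of them higher by that margin. In cluster 4, Gpd1 was the only 1 of 35 listed genes from these lists and those of regulators, hypoxia targets and the serine branch to be higher by 10 percentage points (26.7% against 10.2%), and 30 were lower by as much, near the 92.8% of all entries of that cluster.

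**Figure D4:**
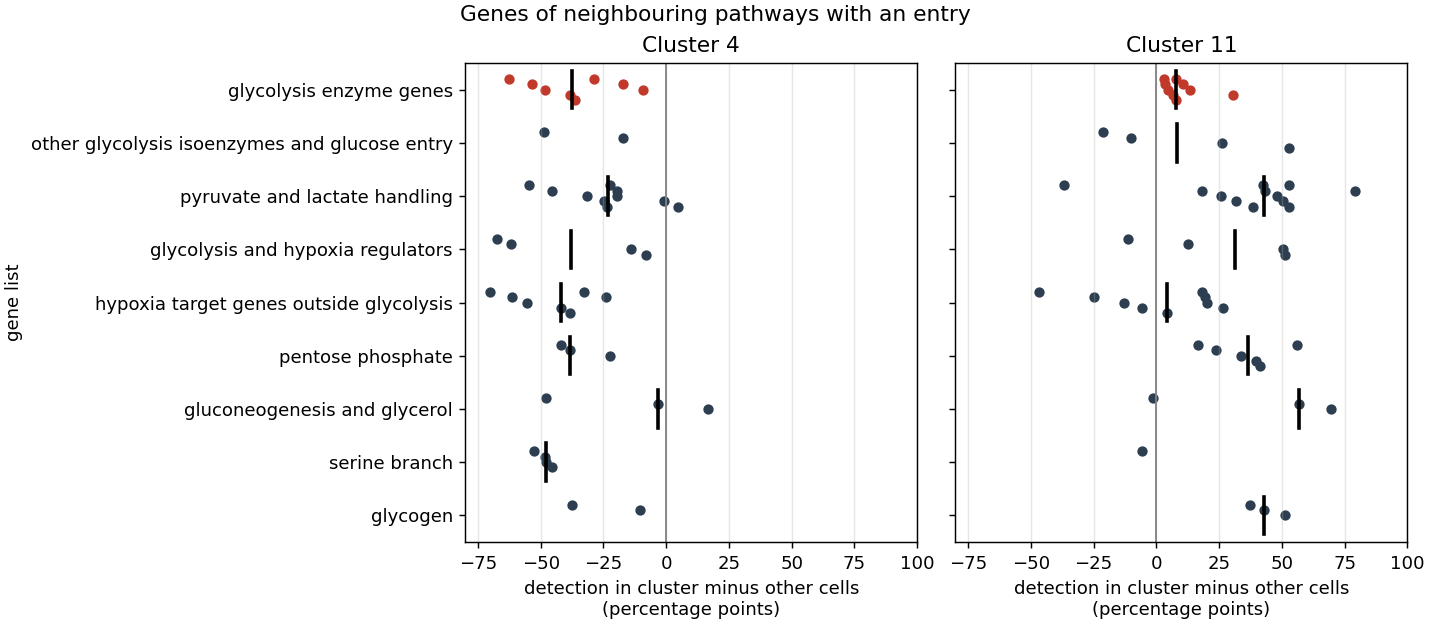
Each point is a gene with an entry for cluster 4 (left) or cluster 11 (right), placed by detection in the cluster minus detection in the other cells in percentage points, with the glycolysis enzymes in red, neighbouring pathways in dark blue and a bar at the median of lists with at least 3 genes. The red points lie between -62.8 and -9.4 in cluster 4 and between 3.0 and 30.7 in cluster 11.

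Genes of the serine branch, which leaves glycolysis at 3-phosphoglycerate, were spread over the clusters other than 4 and 10 in another way than the glycolysis enzymes. They had more room to go higher than those enzymes. Of 5 genes looked up, 4 had an entry. All 4 were lower by at least 10 percentage points in cluster 4, as were 92.8% of all entries there. Phgdh was lower by that margin in cluster 10 too, as were 98.5% of entries. Phgdh, the first enzyme of the branch, reached 93.0% in cluster 5 against 47.7% elsewhere, 91.6% against 49.2% in cluster 9 and 84.4% against 46.2% in cluster 0. All 4 genes (Phgdh, Psat1, Psph and Shmt2) were higher by at least 10 percentage points in clusters 5 and 9, where most entries were too. Clusters 2 and 8 each listed 3 of the 4, all lower by that margin, against 34.5% and 45.6% of all entries. Phgdh stood at 12.9% against 57.1% in cluster 2 and at 9.0% against 54.4% in cluster 8, where the listed glycolysis genes were above 98%.

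Of the glycolysis genes, Pgk1 was compared with the rest of the table for the likeness of its pattern. It had 5 entries, as Pkm did, and came first by alphabet. Among the 100 other genes listed for the same 5 clusters, genes with detection close to that of Pgk1 were Mt1 (root mean square difference 1.79 percentage points) and Gnas (3.13). Pgk1, Mt1 and Gnas were each detected in over 90% of the cells of each of the 5 clusters.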

How the data were processed

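Single-cell RNA libraries came from 8 cultures, 2 per genotype and day, grouped by the sample labels. The authors mapped reads to mm10 with Cell Ranger 6.0.0, aggregated the captures after equalising read depth, filtered cells by gene number and mitochondrial share, log-normalised and clustered the cells in Seurat and removed immune, glial and endothelial cells, per the study's methods. Removal of doublets is not described there, and doublets were not looked for, since the table has no single cells. Of the 5 immune, 3 endothelial and 3 glial markers looked up here, 0 had an entry. Both differentiating markers, Col5a3 and Serpina3n, were higher by at least 10 percentage points in clusters 2, 6 and 8. That margin was reached by 24.6%, 51.9% and 26.2% of all entries of these clusters. Cluster 11 listed 1 of the markers, also higher by that margin, beside 44.4% of all entries there.

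The authors deposited detection as a fraction of cells per gene and cluster, rounded to 0.1 percentage points and printed here as a percent. The columns holding the authors' own fold changes and p-values for each cluster against the remaining cells were not used. The smallest value of the larger fraction in an entry was 10.1%. Depth per sample is unknown from the table, and 0 columns of values per sample were left unused.

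Python 3.11.15 with numpy 2.4.6, pandas 2.3.3 and matplotlib 3.10.9 was used. A least squares fit to the 10 genes with entries in all 12 clusters gave the cluster shares, since detection over all cells must be equal from each cluster; the solver was tested on simulated data. The 12 shares summed to 99.9%. Differences of at least 10 percentage points were counted, and medians were given for at least 3 entries. No test over samples was possible. The members, gene lists and alternatives were chosen with earlier results of these data known. The genes named were the members and the listed genes of neighbouring pathways, plus the 3 genes most like the member with the most entries, of which 1 is not reported here; which examples of the pathway lists to print was chosen after their values were seen.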

Additional observations from a re-analysis of the deposited data

How the results depend on the processing

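No paired analysis was possible because cells of all samples were pooled before deposit and nothing was tested over samples. The number of large higher differences, 4 in all and 3 in cluster 11, depended on the setting. It was 17 in all and 6 in cluster 11 at a minimum of 5 percentage points, and 1 and 1 at 20. By an odds ratio of detection of at least 2, which spreads values near full detection, it was 23 and 9. With cluster 4 taken out of the other cells, an alternative chosen after seeing the data, it was 1 and 1. The median of cluster 5 then went from 7.4 to 4.5, with Pgk1 as deposited. That of cluster 11 went from 7.7 to 5.4 with Pgk1 and Pgam1 as deposited, and to 3.1 over the other 7 genes alone, whose median had been 6.6. Clusters 4 and 10 could both be taken out of the other cells for only 2 genes, Gapdh and Eno1. With the other genes as deposited, the number was then 3 in all and 3 in cluster 11. Those 3 differences, of Hk2, Gpi1 and Tpi1, were not recomputed, so this setting could not change them. Large lower differences went from 9 to 0 without clusters 4 and 10, by construction. As log2 ratios the medians were -0.90 for cluster 4, 0.11 for cluster 5 and 0.12 for cluster 11, with the same signs. Without Gapdh and Eno1 the medians of clusters 4, 5 and 11 were -37.35, 7.4 and 7.85. The counts in cluster 4, the shares, the levels over all cells and in clusters without an entry and the motif counts stayed within 1.5 times under each alternative run for them. No depth was known, so its effect on detection was not measured.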

Other observations

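Of 15 hypoxia target genes outside glycolysis, 9 had an entry for cluster 11, 4 higher by at least 10 percentage points and 3 lower. These counts were near the shares of all entries there, of which 44.4% were higher and 28.7% lower by that margin. Bnip3, a mitophagy receptor, stood at 98.7% against 72.3%, and the peptide hormone gene Adm at 9.5% against 56.4%. Hif1a, which encodes a subunit of the hypoxia-inducible factor, was at 72.1% against 83.2% in cluster 11 and at 96.8% against 80.7% in cluster 1.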
